A study of Mus musculus with 4 samples.

Results

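The p53 pathway was followed through 10 genes: Trp53, which encodes p53 itself, and 9 of its targets that act in cell-cycle arrest or in feedback (Cdkn1a, Mdm2, Ccng1, Btg2, Plk2, Zmat3, Phlda3, Sesn1 and Sesn2). They were chosen by name, with earlier results of these data known, out of 45706 genes in the count table. All 10 were found and passed the filter on low counts. Messenger RNA came from the mouse embryonic stem cell line V6.5, grown on irradiated feeder cells in medium with 15% serum, 1000 U/ml LIF, 1 µM of a MEK inhibitor and 3 µM of a GSK3 inhibitor. The cells had been infected with a lentivirus carrying puromycin resistance, the rtTA activator, Cas9 with GFP under the doxycycline-driven TRE3G promoter, and guide RNAs for either Klf4 or the set of Klf2, Klf4 and Klf5, and clonal lines were picked. The 0 h group (genotype KLF WT, no induction) and the 24 h group (genotype KLF KO, 24 h of doxycycline) each held 2 libraries, called A and B. Titles of the 0 h libraries name WT ESCs and those of the 24 h libraries a KLF4 knockout, so the guides present in a given library are uncertain, as is their presence in the 0 h cells. Doxycycline, Cas9 cutting, loss of KLF protein, time and any difference between clones share this contrast and cannot be told apart.

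p53 is a transcription factor that is kept low by the ubiquitin ligase MDM2 and accumulates after DNA damage and other stresses, for the most part through the stability of its protein. It switches on genes that halt the cell cycle, among them Cdkn1a, whose product p21 inhibits cyclin-dependent kinases, and it switches on Mdm2 and Ccng1, whose products restrain p53 in turn. Embryonic stem cells are known for abundant p53 and for a short G1 phase with a weak G1 checkpoint.

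Of the 10 genes, 4 rose at 24 h and 0 fell at a false discovery rate of 0.05 over all 18005 tested genes (edgeR's quasi-likelihood F test, Benjamini-Hochberg). Mdm2, Ccng1, Btg2 and Plk2 rose by 1.63-fold, 1.67-fold, 1.68-fold and 1.81-fold. Over all tested genes 6.8% passed, 4.15% as higher and 2.65% as lower. Among the 6688 tested genes with at least the mean level of the lowest of the 10 genes, 2.63% passed as higher. The transcript of p53 itself and that of p21 did not pass, and neither did Zmat3, Phlda3, Sesn1 and Sesn2. At an unadjusted p under 0.05, 1 of the 10 was lower (Sesn1), and DESeq2 and limma voom each called 0 lower. That looser threshold was passed by 25.8% of all tested genes, 13.2% as higher and 12.6% as lower. The median log2 fold change was 0.12 over the 10 genes and -0.0067 over all tested genes.

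Upstream sequence is shown for the 4 genes that rose and for Cdkn1a, the best known p53 target, which did not pass. Each stretch holds the 250 bases before a RefSeq transcription start (build GRCm38.p6), read 5′ to 3′ along the gene's own strand. Capitals mark exact matches to the 10-base repeat of the p53 consensus, 20-base full sites, or the cyclic AMP response element TGACGTCA, each searched on both strands. A full site is 2 such repeats with no spacer and at most 2 mismatches, none of them at the fixed C or G of a repeat. Cdkn1a has 2 annotated windows, and the one of the upstream start is shown.
Cdkn1a, chr17:29090729-29090978, strand +: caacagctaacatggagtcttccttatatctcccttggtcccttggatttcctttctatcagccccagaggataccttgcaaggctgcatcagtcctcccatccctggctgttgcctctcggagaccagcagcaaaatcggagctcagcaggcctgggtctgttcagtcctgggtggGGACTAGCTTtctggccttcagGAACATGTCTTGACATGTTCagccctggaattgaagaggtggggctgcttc
Ccng1, chr11:40755287-40755536, strand -: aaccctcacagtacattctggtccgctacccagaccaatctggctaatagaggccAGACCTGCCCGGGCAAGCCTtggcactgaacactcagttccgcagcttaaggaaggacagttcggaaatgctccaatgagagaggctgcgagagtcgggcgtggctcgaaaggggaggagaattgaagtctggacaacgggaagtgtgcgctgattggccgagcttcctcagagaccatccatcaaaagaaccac
Mdm2, chr10:117710759-117711008, strand -: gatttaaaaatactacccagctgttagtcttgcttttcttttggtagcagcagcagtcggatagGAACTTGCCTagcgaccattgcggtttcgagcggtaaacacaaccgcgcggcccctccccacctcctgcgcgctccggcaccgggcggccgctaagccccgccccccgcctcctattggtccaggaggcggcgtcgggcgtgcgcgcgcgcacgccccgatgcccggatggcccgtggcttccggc
Btg2, chr1:134079156-134079405, strand -: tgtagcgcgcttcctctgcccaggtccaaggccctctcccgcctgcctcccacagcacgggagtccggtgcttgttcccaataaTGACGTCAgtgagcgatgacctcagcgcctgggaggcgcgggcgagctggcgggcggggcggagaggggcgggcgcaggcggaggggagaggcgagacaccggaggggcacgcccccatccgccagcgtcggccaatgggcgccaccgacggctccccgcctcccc
Plk2, chr13:110394794-110395043, strand +: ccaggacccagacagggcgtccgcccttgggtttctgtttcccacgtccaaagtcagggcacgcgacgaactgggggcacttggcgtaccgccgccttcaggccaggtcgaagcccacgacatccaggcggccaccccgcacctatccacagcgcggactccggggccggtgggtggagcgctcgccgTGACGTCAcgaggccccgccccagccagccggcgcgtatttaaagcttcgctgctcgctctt

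Full p53 sites stood in 2 of the 11 windows of 300 bases (250 before to 50 after a start) found for 9 of the 10 genes, against 0.326% of all 32851 windows. The Cdkn1a site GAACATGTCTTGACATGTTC lies at chr17:29090928-29090947 and has 1 mismatch. The Ccng1 site AGACCTGCCCGGGCAAGCCT lies at chr11:40755462-40755481, also with 1 mismatch. Neither site overlaps a gene in GENCODE M21. Of these 2 genes, 1 rose (Ccng1) and the other (Cdkn1a) was not past the test. Full sites with a spacer, with a mismatch at the fixed C or G, or outside these windows were not searched for. Genes with no match here may still have them. At least 1 exact 10-base repeat stood in 5 of the 11 windows, of Cdkn1a, Ccng1, Mdm2, Trp53 and the downstream start of Sesn1, against 8.36% of all windows. The element TGACGTCA, searched for after the sequences had been seen, stood in 2 of the 11 windows, those of Btg2 and Plk2, against 1.79% of all windows. These matches are descriptions of letters in a window, and binding was not analysed here.

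Libraries held 46031578 to 52412844 counts. The 10 genes had 1217 to 42388 counts in a library, so counting error alone was 0.486% to 2.87% of a value. One library, replicate A of 0 h, differed from the rest in its GC trend: its deviation from the mean of the 4 libraries correlated with GC content across 14314 genes (r = 0.588, against -0.321 to -0.229 in the others, genes not being independent). The transcripts of Klf2, Klf4 and Klf5 were not past the test (log2 fold changes -0.25, -0.29 and -0.72), with 1 of the 3 (Klf5) lower at an unadjusted p under 0.05 (beside 12.6% of all genes), 1 lower in DESeq2 and 0 in limma voom. Stem cell markers were abundant in every library. In CPM (counts scaled to the size of the library after TMM normalization), 10 markers summed to 4903.3 and 4820.0 at 0 h. At 24 h they summed to 4357.5 and 4418.2 CPM. Lin28a was higher and Utf1, Pou5f1 and Zfp42 were lower at 24 h, beside 4.15% and 2.65% of all tested genes. The other 6 did not pass. Feeder fibroblast markers summed to 397.3 and 315.1 CPM at 0 h and 356.1 and 348.3 CPM at 24 h. Of these 22 markers, 18 were measured, 0 rose, and Pdgfrb and Ccn2 fell, beside 4.15% and 2.65% of all tested genes. At an unadjusted p under 0.05, 3 were higher, beside 13.2% of all genes, and DESeq2 and limma voom called 0 higher. The markers not measured were each under 1 CPM in every library, with Lum at most 0.0855 CPM and Dcn at most 0.119 CPM. The part of feeder RNA in the results was not tested, and in such bulk samples fewer cells of a type and less RNA per cell cannot be told apart.

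**Figure D1:**
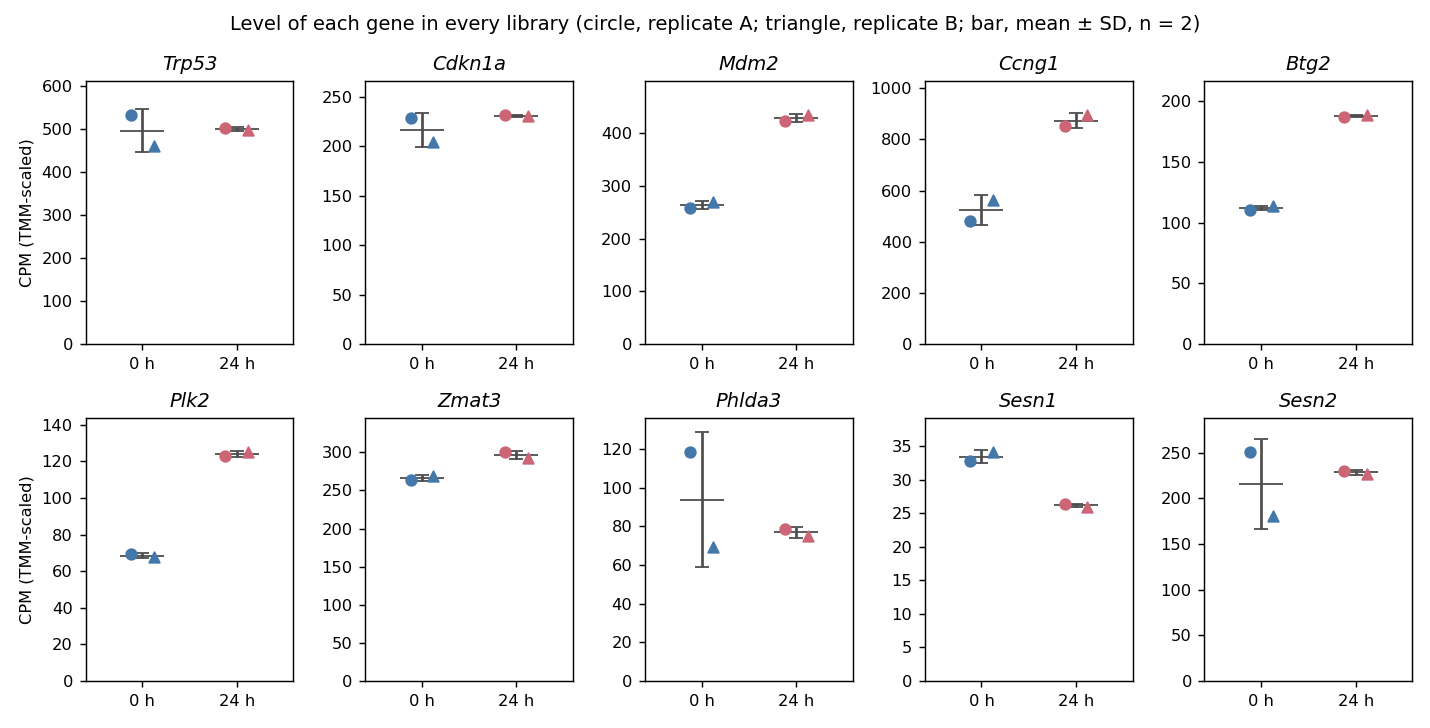
CPM (TMM-scaled, linear axes from 0) of the 10 genes at 0 h and 24 h; circles are replicate A, triangles replicate B, and bars the mean ± SD (n = 2). Mdm2, Ccng1, Btg2 and Plk2 stood higher in both 24 h libraries, while the 0 h replicates of Phlda3 (118.4 and 69.2 CPM) and Sesn2 (250.6 and 180.7 CPM) lay far apart.

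Trp53 (ENSMUSG00000059552, chromosome 11, 69580359 to 69591873 on GRCm38, as for the positions that follow) stood at 532.0 and 461.3 CPM in 0 h replicates A and B, and at 502.6 and 497.0 CPM at 24 h. Both 24 h values lay between the 0 h values. The fold was 1.01 with a 95% interval from 0.847 to 1.20, and the adjusted p was 0.967 in edgeR's test. Leaving out 0 h replicate A gave a log2 fold change of 0.11 (adjusted p = 0.0255) and leaving out replicate B gave -0.094 (adjusted p = 0.0487), so that the sign depended on which 0 h library was kept. In every such fit of 3 libraries the spread is taken from the group that still has 2, and the single sample is assumed to share it.

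The feedback genes Mdm2 and Ccng1 rose. Mdm2 (ENSMUSG00000020184, chromosome 10, 117688875 to 117710758), the ubiquitin ligase that marks p53 for degradation, stood at 258.4 and 269.5 CPM at 0 h and at 423.9 and 433.9 CPM at 24 h. The groups were far apart and the replicates of each were close. The means were 263.9 ± 7.79 and 428.9 ± 7.12 CPM (SD, n = 2), and the log2 difference was 0.70 with an SE of 0.094 (edgeR, adjusted p = 0.0109).

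Ccng1 (ENSMUSG00000020326, chromosome 11, 40748552 to 40755311) encodes cyclin G1, which brings the phosphatase PP2A to MDM2. It stood at 482.5 and 564.4 CPM at 0 h and at 853.1 and 894.3 CPM at 24 h. Again the groups did not overlap, although the 0 h libraries differed by more than the 24 h libraries. The means were 523.5 ± 57.9 and 873.7 ± 29.1 CPM (SD, n = 2), and the log2 difference was 0.74 with an SE of 0.11 (edgeR, adjusted p = 0.0141). Of the 10 genes Ccng1 has the lowest GC content (40.8%), and its log2 fold change was 0.59 in a fit corrected for GC content and length, and 0.63 and 0.85 when 0 h replicate A or B was left out, past the test in each.

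Among the arrest genes, Btg2 and Plk2 rose and Cdkn1a did not pass. Btg2 (ENSMUSG00000020423, chromosome 1, 134075170 to 134079120), an antiproliferative protein that binds the CCR4-NOT deadenylase, stood at 110.7 and 113.6 CPM at 0 h and at 187.2 and 188.5 CPM at 24 h. Replicates lay within a few CPM of each other in both groups. Its log2 difference was 0.74 with an SE of 0.096 (edgeR, adjusted p = 0.0101).

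Plk2 (ENSMUSG00000021701, chromosome 13, 110395046 to 110400844), a polo-like kinase, stood at 69.5 and 67.5 CPM at 0 h and at 122.9 and 125.1 CPM at 24 h. It had the highest fold change of the 10 genes, with a log2 value of 0.86 and an SE of 0.10 (edgeR, adjusted p = 0.00808) and groups that did not overlap. For Btg2 and Plk2 the GC and length correction and the removal of either 0 h library kept the log2 fold change between 0.72 and 0.76, and between 0.81 and 0.87. The calls of Mdm2, Ccng1 and Btg2 were lost when either 24 h library was left out, and that of Plk2 when replicate B was. With 24 h replicate A and then B left out, the adjusted p in edgeR was, in that order, 0.120 and 0.166 for Mdm2, 0.0607 and 0.112 for Ccng1, 0.112 and 0.126 for Btg2, and 0.0452 and 0.0582 for Plk2. The log2 fold changes in these fits were 0.67 to 0.85.

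Cdkn1a (ENSMUSG00000023067, chromosome 17, 29090976 to 29100727) stood at 228.5 and 204.1 CPM at 0 h and at 231.1 and 230.1 CPM at 24 h. Both 24 h values were above both 0 h values, as was the case in 1 direction or the other for 7 of the 10 genes and 58.8% of all tested genes. The difference from 0 h replicate A was a small part of that between the 0 h libraries. The fold was 1.07 with a 95% interval from 0.901 to 1.26 (log2 fold change 0.09, adjusted p = 0.605 in edgeR's test). After the GC and length correction its log2 fold change was 0.17 (adjusted p = 0.0504), and it was also 0.17 when 0 h replicate A was left out (adjusted p = 0.00112). With 0 h replicate B left out it was 0.0093 (adjusted p = 0.887). With the replicate block added to that correction the adjusted p was 0.0351. Exons of Cdkn1a share 273 bases with an unconfirmed gene model on the other strand that was not analysed here.

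**Figure D2:**
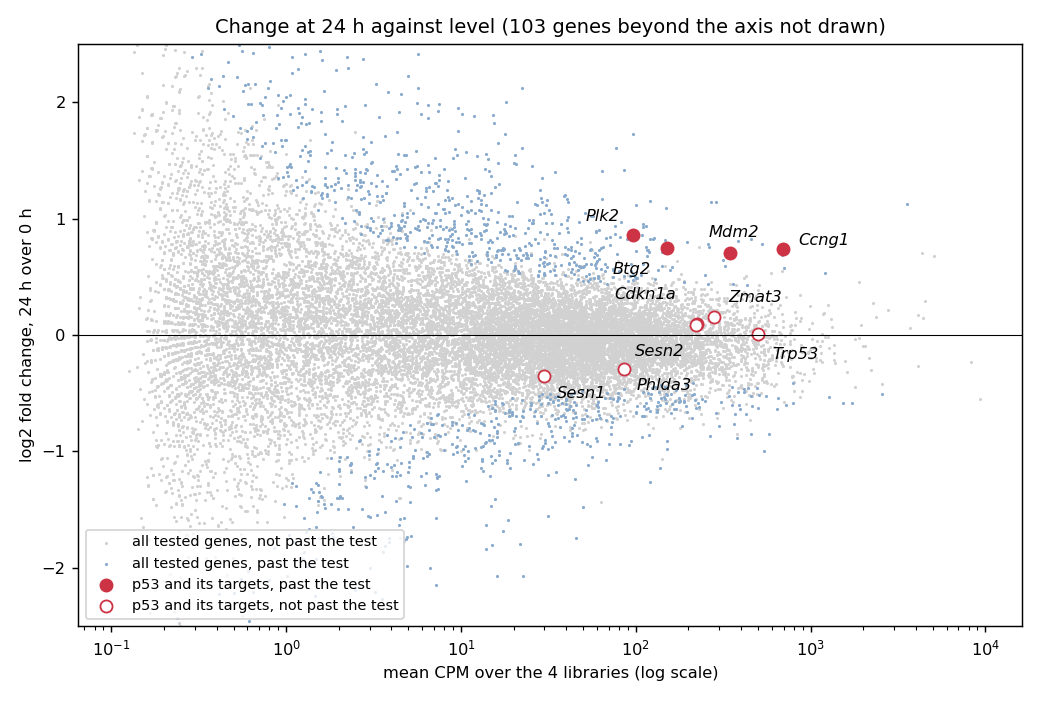
Log2 fold change (24 h over 0 h) against the mean CPM of the 4 libraries (log axis) for all tested genes, with p53 and its targets in red. Mdm2, Ccng1, Btg2 and Plk2 lie between 0.70 and 0.86, above most genes of like level, while Trp53 (0.01) and Cdkn1a (0.09) lie near 0.

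Zmat3 (ENSMUSG00000027663, chromosome 3, 32334792 to 32366014), an RNA-binding zinc-finger protein, stood at 263.6 and 268.6 CPM at 0 h and at 300.3 and 292.6 CPM at 24 h. The groups did not overlap, but the difference was small: the fold was 1.11 with a 95% interval from 0.957 to 1.30 (adjusted p = 0.332 in edgeR's test). Its log2 fold change was 0.06 after the GC and length correction, against 0.16 before it. Zmat3 passed when 0 h replicate A was left out (0.14, adjusted p = 0.00739) and when 0 h replicate B was (0.17, adjusted p = 0.000675).

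Phlda3 and Sesn2, the members with the highest GC content (62.6% and 58.7%), differed most between the 0 h libraries. Phlda3 (ENSMUSG00000041801, chromosome 1, 135766119 to 135769136), which competes with the kinase AKT for membrane lipids, stood at 118.4 and 69.2 CPM at 0 h and at 78.7 and 74.9 CPM at 24 h. The 24 h values fell between those of 0 h, nearer to replicate B. Its log2 fold change was -0.29 (adjusted p = 0.456 in edgeR's test), but 0.13 after the GC and length correction (adjusted p = 0.237). Leaving out 0 h replicate A gave 0.15 (adjusted p = 0.0382), and leaving out replicate B gave -0.63 (adjusted p = 3.00e-29).

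The sestrins restrain the growth kinase mTORC1, in part through the GATOR complexes. Sesn2 (ENSMUSG00000028893, chromosome 4, 132492032 to 132510501) stood at 250.6 and 180.7 CPM at 0 h and at 230.3 and 226.4 CPM at 24 h, so the groups overlapped (log2 fold change 0.08, adjusted p = 0.770 in edgeR's test). It was 0.31 after the GC and length correction (adjusted p = 0.00388). Leaving out 0 h replicate A gave 0.34 (adjusted p = 3.52e-11), and leaving out replicate B gave -0.14 (adjusted p = 0.00596). Sesn1 (ENSMUSG00000038332, chromosome 10, 41809935 to 41908424) stood at 32.8 and 34.2 CPM at 0 h and at 26.4 and 26.0 CPM at 24 h. Here both groups were tight and did not overlap, and the lower values were those of 24 h. The log2 difference was -0.35 with a 95% interval from -0.62 to -0.08, and edgeR gave an unadjusted p of 0.0172 and an adjusted p of 0.115. It was -0.38 after the GC and length correction (adjusted p = 0.0109), and -0.38 and -0.33 when 0 h replicate A or B was left out (adjusted p = 2.05e-05 and 0.000168).

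**Figure D3:**
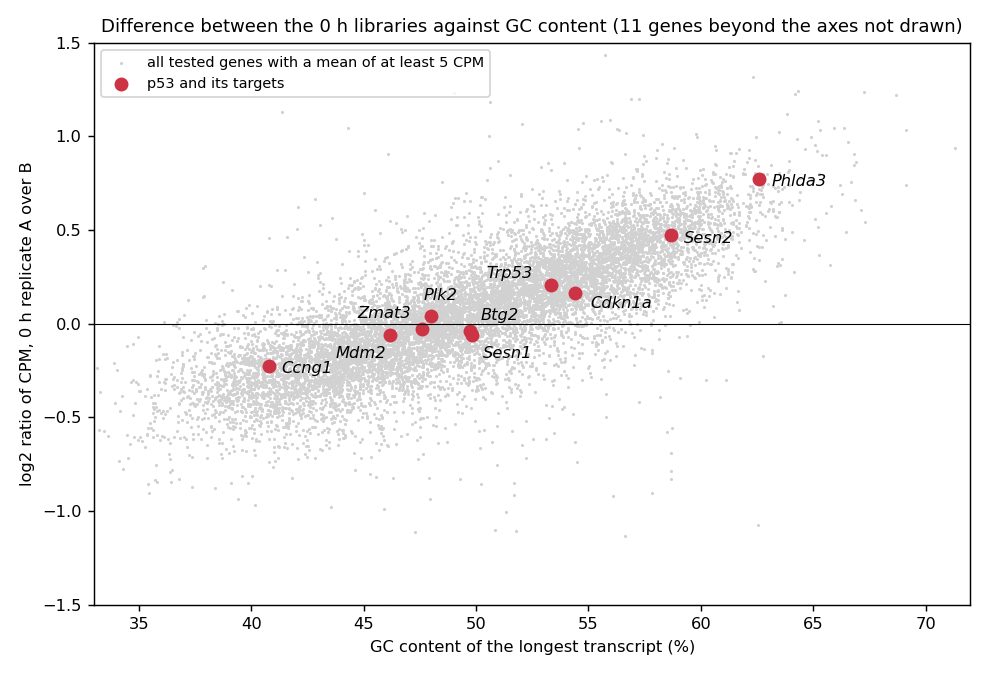
Log2 ratio of CPM in 0 h replicate A over 0 h replicate B against the GC content of the longest transcript, for tested genes with a mean of at least 5 CPM (grey) and for the 10 genes (red). The ratio goes from -0.23 in Ccng1 at 40.8% GC to 0.77 in Phlda3 at 62.6% GC.

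The difference between the 0 h libraries followed GC content among these genes. Across the 10 genes, which share the same libraries, Pearson's r between GC content and the log2 ratio of 0 h replicate A over B was 0.953. The ratio was 0.77 for Phlda3, 0.47 for Sesn2, 0.21 for Trp53 and 0.16 for Cdkn1a, and -0.23 for Ccng1. At 24 h the ratio of A over B lay between -0.07 and 0.07 in all 10 genes. After the GC and length correction, 5 of the 10 were higher (Mdm2, Ccng1, Btg2, Plk2 and Sesn2) and 1 lower (Sesn1), where 25.7% of all tested genes passed, 11.5% as higher and 14.1% as lower. When 0 h replicate A was left out, 9 were higher and 1 (Sesn1) lower, beside 32.2% of all genes (16.5% and 15.8%). When 0 h replicate B was left out, 5 were higher (Mdm2, Ccng1, Btg2, Plk2 and Zmat3) and 4 lower (Trp53, Phlda3, Sesn1 and Sesn2), beside 50.2% (23.2% and 27.0%).

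**Figure D4:**
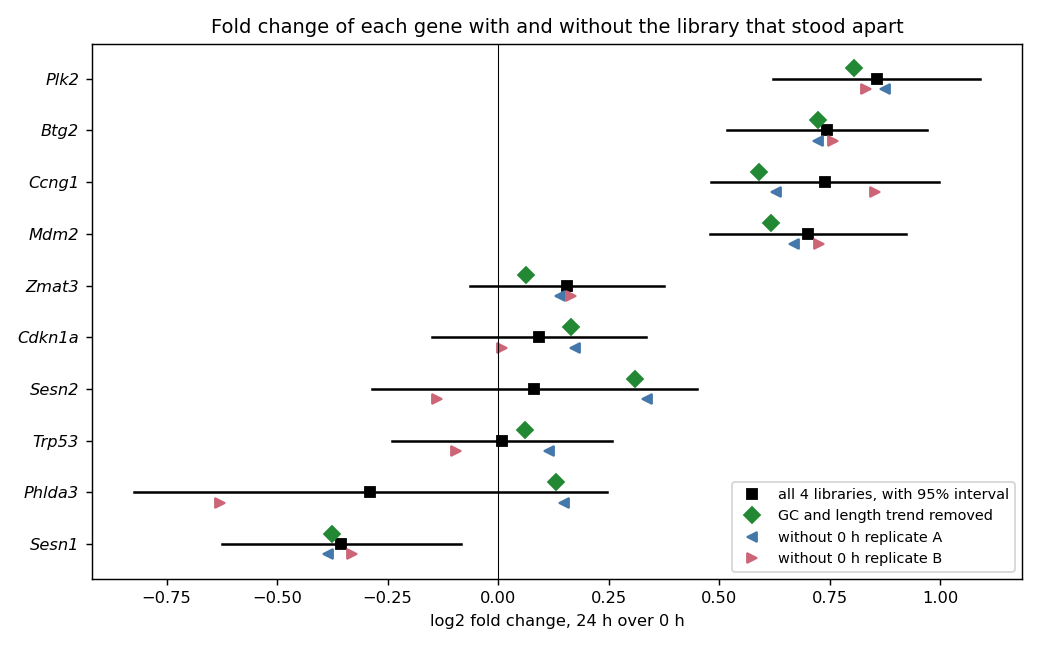
Log2 fold change (24 h over 0 h) of each gene with all 4 libraries (square, with the 95% interval of edgeR's fit), after the GC and length correction (diamond), and with 0 h replicate A or B left out (triangles). Plk2, Btg2, Ccng1 and Mdm2 stay at 0.59 or above in every fit shown, while Sesn2, Trp53 and Phlda3 lie on both sides of 0.

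Levels were compared between genes as CPM per kb of exon. At 0 h Ccng1 was highest with 149.1 ± 16.5 CPM per kb (SD, n = 2), followed by Trp53 with 122.8 ± 12.4. Sesn2, Cdkn1a, Phlda3 and Mdm2 came next at 62.1, 60.9, 60.2 and 51.9 CPM per kb, and the ranges of neighbours among these overlapped. Btg2 (40.9), Zmat3 (23.3), Plk2 (15.3) and Sesn1 (8.41 CPM per kb) followed without overlap. At 24 h the order was Ccng1 (248.8 CPM per kb), Trp53 (123.6), Mdm2 (84.4), Btg2 (68.5), Sesn2 (65.7), Cdkn1a (64.9), Phlda3 (49.3), Plk2 (27.6), Zmat3 (25.9) and Sesn1 (6.58), and no neighbours overlapped. With the length of the longest transcript in place of all exons, Trp53 (151.6 CPM per kb) came before Ccng1 (149.1) at 0 h. Cdkn1a moved to 104.0 CPM per kb and Mdm2 to 83.9, both before Phlda3 (65.4) and Sesn2 (62.1). That length was not applied at 24 h, so the 24 h order holds for all exons only.

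Ratios to Trp53 within a library set the feedback and arrest transcripts against that of their regulator. The ratio of Mdm2 to Trp53, per kb, was 0.387 in 0 h replicate A, 0.465 in B, and 0.671 and 0.695 in the 24 h libraries. For Ccng1 to Trp53 the 0 h ratios were 1.04 and 1.41, and those of 24 h 1.95 and 2.07. Both 24 h libraries were above both 0 h libraries in each ratio. The ratio of Cdkn1a to Trp53 moved less, from 0.489 and 0.504 to 0.523 and 0.527. Between the sestrins, the ratio of Sesn2 to Sesn1 was 8.75 and 6.06 in the 0 h libraries, and 10.01 and 9.98 in those of 24 h. With 2 libraries against 2 these ratios were not tested.

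Other genes of the pathway were read from lists set by name, with earlier results of these data known. Of 16 regulators of p53 (the kinases that phosphorylate it, its ligases, acetylases and binding partners), 0 passed edgeR's test. At an unadjusted p under 0.05, 4 were higher and 1 lower, beside 13.2% and 12.6% of all genes. DESeq2 called 3 higher, and limma voom 0. Their median log2 fold change was 0.0056. Mdm4, the relative of MDM2 that masks the activation domain of p53, stood at 298.8 and 389.2 CPM at 0 h and at 474.3 and 489.9 CPM at 24 h (log2 fold change 0.49, adjusted p = 0.0821 in edgeR's test). The ubiquitin ligase genes Rchy1 and Cop1 had log2 fold changes of 0.40 and 0.48, and the DNA-damage kinase gene Prkdc 0.49. The GC content of Mdm4, Rchy1, Cop1 and Prkdc was 43.3%, 46.7%, 36.6% and 43.3%. Their log2 ratios of 0 h replicate A over B were, in that order, -0.38, 0.05, -0.35 and -0.42. After the GC and length correction 3 of the 16 were higher and 2 lower, beside 11.5% and 14.1% of all genes. Leaving out either 0 h library gave more calls among the 16, as it did over all tested genes. Leaving out a 24 h library did not.

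Of 18 other p53 targets of arrest, repair and metabolism, 4 rose and 1 fell, beside 4.15% and 2.65% of all tested genes. Their median log2 fold change was 0.14. At an unadjusted p under 0.05, 7 were higher and 2 lower, beside 13.2% and 12.6% of all genes. Gadd45a, a stress sensor that binds PCNA, stood at 15.3 and 17.7 CPM at 0 h and at 32.9 and 32.4 CPM at 24 h (log2 fold change 0.99, adjusted p = 0.0109 in edgeR's test). Trp53inp1, which promotes the activity of p53, stood at 293.0 and 365.8 CPM at 0 h and at 589.1 and 575.9 CPM at 24 h (log2 fold change 0.82). The noncoding RNA gene Pvt1 rose by 0.80 on the log2 scale. The fourth gene that rose, Polk, a DNA polymerase that copies past lesions, is named here after its value was seen (0.61). Sfn, which encodes 14-3-3 sigma, an inhibitor of entry into mitosis, fell from 7.45 and 6.32 CPM to 2.96 and 3.12 CPM (log2 fold change -1.18, adjusted p = 0.0157 in edgeR's test). Gadd45a and Pvt1 share exon bases with genes on the other strand, so their counts are uncertain. The GC content of Gadd45a, Trp53inp1, Pvt1 and Polk was 49.8%, 38.8%, 45.9% and 41.6%, and that of Sfn 59.7%. Their log2 ratios of 0 h replicate A over B were, in that order, -0.21, -0.32, -0.38, -0.33 and 0.24. The part of the GC trend of 0 h replicate A in these changes was not tested.

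Of 12 p53 targets that promote cell death, 4 rose and 0 fell, beside 4.15% and 2.65% of all tested genes. Their median log2 fold change was 0.14. Fas, the gene of a death receptor, stood at 0.613 and 0.638 CPM at 0 h and at 2.68 and 2.67 CPM in the 24 h libraries. Each 0 h library held only 31 counts of it. The others that rose were the BH3-only gene Pmaip1, the apoptosome gene Apaf1 and the membrane protein gene Perp (log2 fold changes 0.61, 0.49 and 0.55, against 2.09 for Fas). At an unadjusted p under 0.05, 5 were higher and 1 lower, beside 13.2% and 12.6% of all genes. The lower gene was Bbc3 (65.2% GC, log2 fold change -0.72). It stood at 100.9 and 47.7 CPM in 0 h replicates A and B, and at 46.9 and 43.4 CPM at 24 h. DESeq2 called 5 higher and 0 lower, and limma voom 3 higher and 0 lower. Leaving out either 0 h library gave more calls among these 12 and among the 18 targets of arrest, repair and metabolism. Leaving out either 24 h library gave fewer calls in both lists. The same held over all tested genes. The share of the 10 genes that rose (4) was not tested against that of either list.

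**Figure D5:**
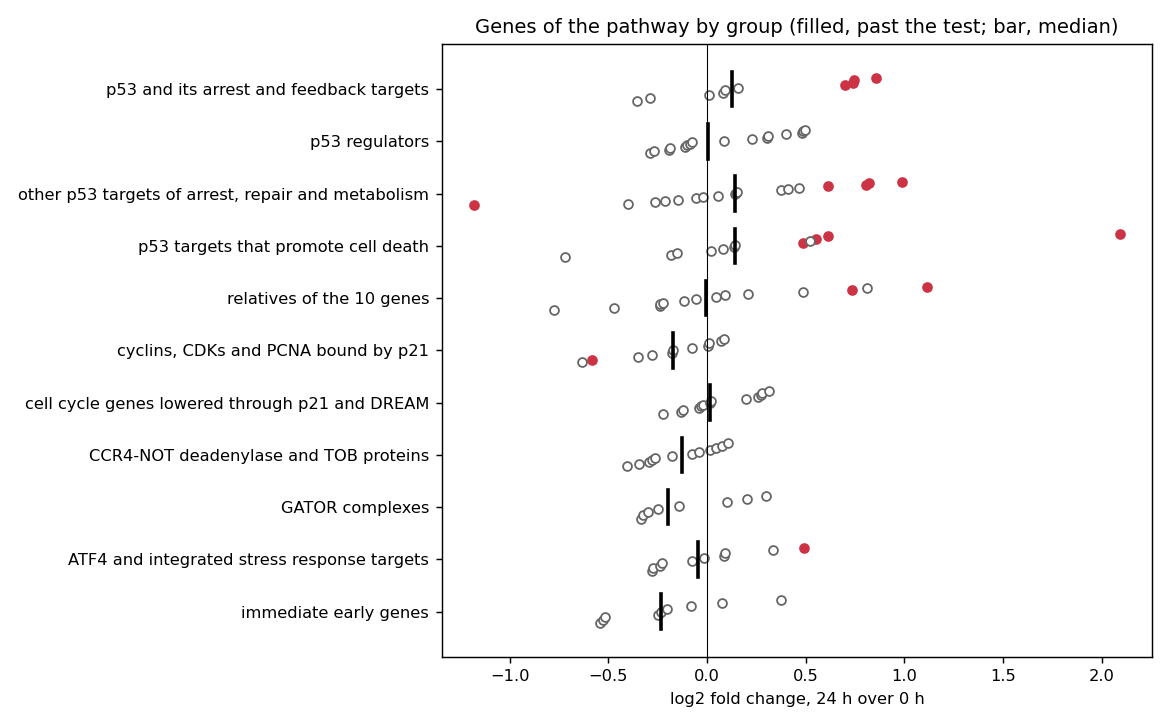
Log2 fold change (24 h over 0 h) of each measured gene by list; filled points passed edgeR's test and bars are medians. The medians of the p53 target lists lie at 0.12 to 0.14, and those of the regulators and of the cell cycle genes lowered through p21 near 0. Other lists have medians below 0: immediate early genes -0.23, GATOR complexes -0.20, proteins bound by p21 -0.17, and CCR4-NOT and TOB -0.13.

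Genes of the same families as the 10 were read next. Of 14 relatives, Trp73 and Cdkn1c rose and 0 fell, beside 4.15% and 2.65% of all tested genes. Their median log2 fold change was -0.0030. Trp73, which encodes the p53 relative p73, stood at 21.1 and 13.1 CPM at 0 h and at 36.6 and 37.6 CPM at 24 h (log2 fold change 1.12, adjusted p = 0.0300 in edgeR's test). Cdkn1c, which encodes the p21 relative p57, stood at 6.19 and 5.95 CPM at 0 h and at 10.1 CPM in both 24 h libraries (0.73, adjusted p = 0.0334 in edgeR's test). Phlda1 had a log2 fold change of -0.77 and an adjusted p of 0.0546 in edgeR's test, and was the lowest of the 14. At an unadjusted p under 0.05, 3 of the 14 were higher and 2 lower, beside 13.2% and 12.6% of all genes. DESeq2 called 1 as lower, limma voom 0. Both genes that rose share exon bases with antisense genes, and their counts are uncertain.

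The proteins that p21 binds and the genes that fall when p21 acts were also read. Of 11 cyclins, cyclin-dependent kinases and PCNA, Ccnd1 fell and 0 rose, beside 2.65% and 4.15% of all tested genes. Ccnd1 went from 143.0 and 131.2 CPM to 92.8 and 90.2 CPM (log2 fold change -0.58, adjusted p = 0.0236 in edgeR's test). At an unadjusted p under 0.05, 4 were lower and 0 higher, beside 12.6% and 13.2% of all genes. DESeq2 and limma voom called 2 and 1 lower and 0 higher. Ccnd3, Pcna and Ccne1 had log2 fold changes of -0.63, -0.35 and -0.28. The median was -0.17, and 5 were lower after the GC and length correction, beside 14.1% of all genes. Ccnd1 and Ccnd3 each share exon bases with a gene on the other strand. Of 13 cell cycle genes that p53 lowers through p21 and the DREAM repressor, 0 passed edgeR's test. At an unadjusted p under 0.05, 2 of the 13 were higher and 0 lower, beside 13.2% and 12.6% of all genes, and DESeq2 and limma voom called 0. Their median was 0.014. The cyclin B genes Ccnb2 and Ccnb1 had log2 fold changes of 0.31 and 0.28, Top2a 0.26 and Bub1 0.27. After the GC and length correction 1 was higher and 1 lower, beside 11.5% and 14.1% of all genes. Leaving out either 0 h library gave more calls among the 13, as it did over all tested genes.

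Partners and other inputs of single members were followed in the same way. For Btg2, of 12 genes of the CCR4-NOT deadenylase and TOB proteins, 0 passed in edgeR, DESeq2's count was 0 and limma voom's 0, and 4 were lower at an unadjusted p under 0.05, beside 12.6% of all genes (Cnot11 -0.40, Cnot1 -0.26, Cnot3 -0.35 and Tob1 -0.29 on the log2 scale). After the GC and length correction 6 of the 12 were lower, beside 14.1% of all genes. For the sestrins, of 8 genes of the GATOR complexes 0 passed in edgeR, DESeq2 or limma voom, and 2 were lower at an unadjusted p under 0.05, beside 12.6% of all genes (Sec13 -0.33 and Seh1l -0.30). After the GC and length correction 1 was higher and 3 were lower, beside 11.5% and 14.1% of all genes.

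Sesn2 is also a target of ATF4, and Btg2 and Plk2 are also immediate early genes in many cells. Of 10 ATF4 and stress response genes, Ddit3 rose (log2 fold change 0.49, adjusted p = 0.0397 in edgeR's test), and the median was -0.045. Over all tested genes 4.15% passed as higher. Ddit3 shares exon bases with Mars on the other strand, so its counts are uncertain. Atf4 itself stood at 547.4 and 539.5 CPM at 0 h and at 529.4 and 547.0 CPM at 24 h. Of 9 measured immediate early genes (of 10 listed), 0 passed in edgeR or limma voom, 1 was lower in DESeq2, and 3 were lower at an unadjusted p under 0.05, beside 12.6% of all genes. Their median was -0.23, with Nr4a1, Ier2 and Jun at -0.52, -0.54 and -0.52. The part of these inputs in the rise of Btg2 and Plk2 was not tested. Calls in these lists moved with single libraries. Leaving out either 0 h library gave more genes called lower in the CCR4-NOT and TOB, GATOR, ATF4 and immediate early lists. The same held over all tested genes. Leaving out a 24 h library did not raise these counts.

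The genes most like Trp53 and Cdkn1a over the 4 libraries were found by the distance between centred log2 CPM values, among 11309 other genes with a mean of at least 5 CPM. For Trp53 they were Pdcd2l, Ado and Rrp1b (distances 0.012, 0.016 and 0.017). For Cdkn1a they were Tmem120a, Prpsap1 and Htt (0.013, 0.017 and 0.021). With only 4 libraries this likeness is weak: 488 genes lay within a distance of 0.1 of Trp53 and 401 of Cdkn1a.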

How the data were processed

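Read counts per Ensembl gene, not normalized, are what the authors deposited. Libraries were made with a stranded mRNA kit and sequenced as single reads of 50 nt, per the labels' protocols. TopHat2, HTSeq, DESeq and mm10 are named without roles, per the submitters' processing notes. Which annotation was counted, and on which strand, is not given in the sources used here, so reads of overlapping genes cannot be told apart.

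Symbols, positions, exon lengths and GC content were read from the GENCODE M21 annotation (GRCm38, equal to mm10). No symbol was found for 563 identifiers (0.107% of counts). Promoter windows were from RefSeq on GRCm38.p6. After filterByExpr (minimum count 10, minimum total 15) and TMM scaling, groups were compared 2-sided with the quasi-likelihood F test of edgeR 4.0.16 (legacy=TRUE) under R 4.3.3. P-values were adjusted by Benjamini-Hochberg over all 18005 genes, with a threshold of 0.05. With 2 libraries per group they set each difference against the spread between these samples, which edgeR draws toward a trend over all genes. The series' text calls the samples biological replicates. Alternatives were DESeq2 1.42.0, limma 3.58.1 (voom), other scalings and filters, the letters A and B as a block, spline trends on GC content and length fitted per library and removed as offsets (the GC and length correction), and each library left out. The members and lists were chosen with earlier results of these data known. Named are all members, Klf2, Klf4 and Klf5, up to 4 genes of each list in order of p, and the 3 genes most like Trp53 and Cdkn1a. Atf4, Lum and Dcn are named for their role, and Bbc3 after its value was seen. Figures used matplotlib 3.10.9. Tested on simulated data for this contrast (17698 genes run, 50 changed at each size), edgeR's test called 0% of the genes with a 1.25-fold change, 20% of those with 1.5-fold, 64% of those with 2-fold and 90% of those with 4-fold. Of 102 calls 15 were false, and 0 were made with no gene changed.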

Additional observations from a re-analysis of the deposited data

How the results depend on the processing

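Over all genes, 1225 passed in the main settings (748 higher and 477 lower). The count was 2589 with no filter on low counts, 1901 with DESeq2's Wald test, 3253 with the replicate block, 4621 with the GC and length trend removed (2079 higher and 2542 lower) and 5882 with both, and 506 to 9416 with 1 library left out. The count of the 10 genes that rose was 4 under each other scaling, filter and tool and under the replicate block, 5 with the GC and length trend removed, 6 with that and the block, and 0 to 9 with 1 library left out. The count that fell was 1 with the trend removed, 1 with that and the replicate block, and 0 to 4 with 1 library left out. The letters A and B were not taken as pairs: the deviations of A from the group means at 0 h and 24 h correlated at 0.0616 across genes. The block alone changed the call of 0 of the 10 genes.

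Directions that turned were those of genes not past the test. Trp53 was at -0.0069 with no filter, at -0.094 without 0 h replicate B, at -0.02 without 24 h replicate A, and at most at 0.11 with 1 library left out. Phlda3 was at 0.13 with the trend removed, 0.13 with that and the block, and -0.63 to 0.15 with 1 library left out. Sesn2 lay between -0.14 and 0.34 with 1 library left out. Klf2 was at 0.14 with the trend removed, 0.15 with that and the block, and 0.28 without 0 h replicate A. The cause was not tested. Over all tested genes, log2 replicate differences had an SD of 0.467 (0 h) and 0.336 (24 h). These SDs take in genes of low count and do not measure the spread of p53 and its abundant targets.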
